A study of Arabidopsis thaliana with 8 samples.

Results

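The UGT genes of Arabidopsis thaliana encode UDP-glycosyltransferases, and they were taken here as every gene whose symbol in the platform's gene table begins with UGT followed by a number. The rule found 47 genes among the 13350 genes that had a probe set of their own on the array, and each of the 47 had 1 such probe set. After the lowest 40% of probe sets by mean signal were left out, 24 of the 47 genes were tested and 23 were below that filter. The rule used symbols alone and no measured value.

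RNA was measured in whole rosettes of the pgm mutant in the Col-0 background, 5 to 6 weeks old, at 6 hours of the day. There were 2 arrays at 12h, labelled A and B, 1 array each at 04h, 08h, 16h and 20h, and 2 arrays at 00h, also labelled A and B. Every sample was a pool of 15 rosettes, harvested as 5 lots of 3 and ground together. All 8 arrays came from the mutant, which lacks the plastid phosphoglucomutase and makes almost no leaf starch, and no wild-type array was analysed here. The labels did not give the hours of light, and they did not say whether A and B were separate harvests, so the spread between them may be technical.

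UDP-glycosyltransferases move a sugar from a UDP-sugar, such as UDP-glucose or UDP-rhamnose, onto a small acceptor molecule, which usually makes that molecule more soluble and changes its activity or its storage. Plants carry large families of these enzymes, named by a family number and a letter, and members that lie side by side on a chromosome are common. Their acceptors include flavonols, hydroxycinnamates and monolignols, the thiohydroximate precursors of glucosinolates, sterols, and the hormones auxin, cytokinin, abscisic acid and salicylate.

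Signal is given as the deposited array intensity, a linear value scaled so that the mean of each array, after trimming 2% at each end, was 100. Changes are differences of log2(intensity + 16), so 1 unit is a doubling for bright probe sets and understates the change of dim ones. A change was called where the adjusted p of limma, a linear model with a shared variance estimate, was under 0.05 after Benjamini-Hochberg adjustment over all 13647 probe sets tested. The rhythm test asked whether a 24 h cosine fitted the 8 arrays, and the amplitude is the rise of that curve above its middle. In this model the hours with 1 array were assumed to vary like 00h and 12h, the hours with 2. The array number limits the precision of every value.

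Some arrays stood apart in technical measures. The spiked hybridisation controls averaged 1562 on 00h A and 1574 on 12h A, against 415.7 to 522.9 on the other 6 arrays. Each of those arrays was labelled A and had its partner B at the same hour, so the comparison of 12h with 00h could also be made within each letter, and these values are given beside the changes. The ratio of the 3′ to the 5′ actin probe sets, a sign of RNA quality, was 3.11 and 3.19 at 12h against 2.69 and 2.74 at 00h, and 2.29 to 2.57 at the other hours. The 12h arrays thus lay above all others in this ratio, and its part in the changes at 12h was not tested. The part of the controls in any single change was not tested further. Among markers of tissues, the leaf genes RCA and LHCB4.2 were bright on every array, with intensities of at least 2299.9 for RCA and at least 1179.8 for LHCB4.2. LHCB4.2 was lower at 12h than at 00h, by -0.84 ± 0.30 in log2 (SE, limma adjusted p = 0.0463), and rhythmic (limma adjusted p = 8.55e-04), and RCA did not pass at 12h (-0.79 ± 0.438, SE, limma adjusted p = 0.179). The root gene PYK10 had 120.2 and 126.8 at 12h against 300.0 and 271.8 at 00h, a change of -1.11 ± 0.207 (SE, limma adjusted p = 0.00182). STZ, a zinc-finger gene induced by touch and wounding, was also lower at 12h, by -1.68 in log2 (limma adjusted p = 6.27e-04), and the part of these marker genes in the UGT values was not tested.

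Of the 24 tested UGT genes, 7 were higher and 7 were lower at 12h than at 00h. The 7 higher genes were UGT74B1, UGT78D1, UGT78D2, UGT80B1, UGT76E11, UGT71B1 and UGT84A3, and over all probe sets tested 21.9% were called higher. The 7 lower genes were UGT73B1, UGT76B1, UGT74D1, UGT87A2, UGT76C2, UGT85A4 and UGT72E1, against 18.6% over all probe sets. Calls in either direction thus covered 58.3% of the tested UGT genes, against 40.5% of all probe sets. The median size of the change was 0.92 in log2 for the 24 UGT genes and 0.53 over all probe sets, while the median signed change was -0.31 for the UGT genes and 0.06 over all. The change had the same sign between the A arrays and between the B arrays in 23 of the 24 genes, and UGT85A7 was the exception. Where the 12h and 00h arrays do not overlap the sign must be the same in both letters. There was no overlap in all 14 called genes, in 21 of the 24 tested genes and in 71.0% of all probe sets. The shared sign thus adds no support to the calls. The share of all probe sets with the same sign was not computed. In whole rosettes, fewer cells of a type and less RNA per cell cannot be told apart.

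**Figure D1:**
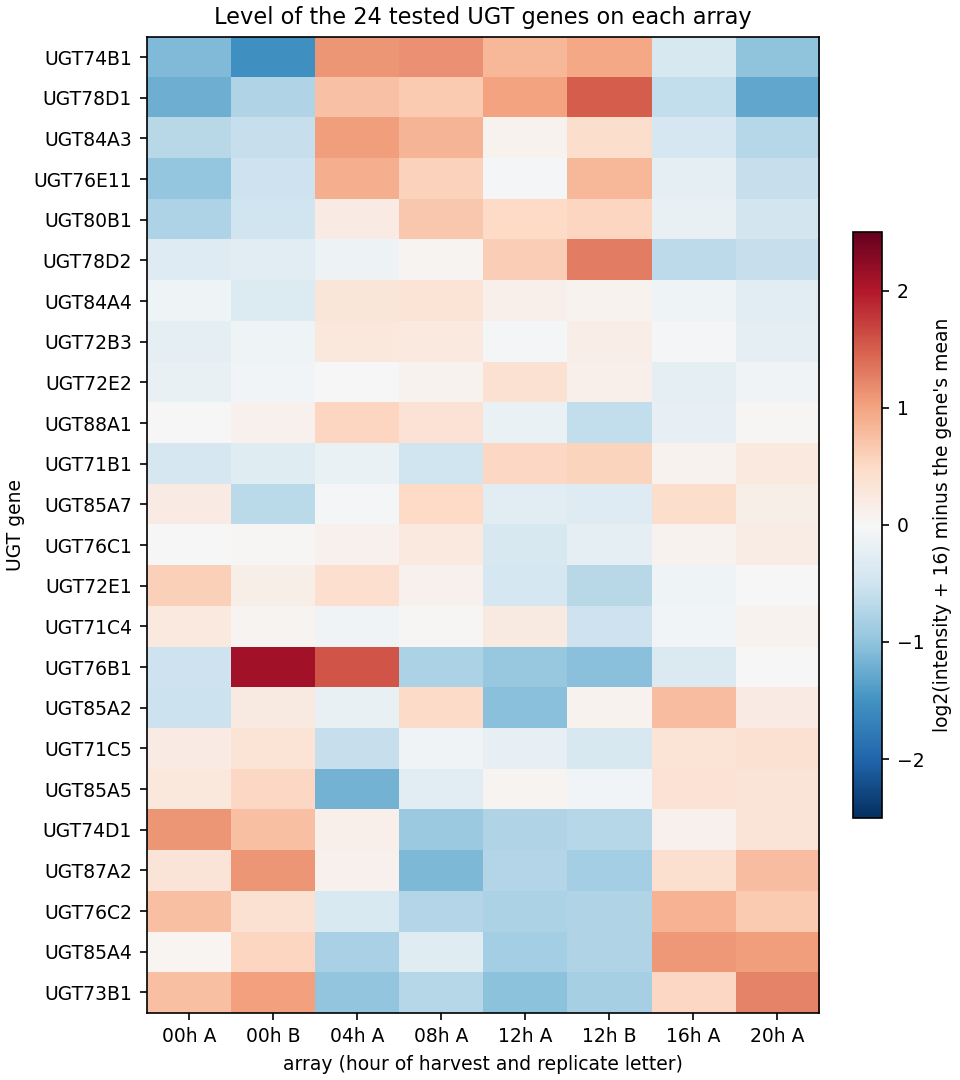
Each row is 1 of the 24 tested UGT genes and each column 1 of the 8 arrays, with colour giving log2(intensity + 16) minus the gene's mean over the arrays. One set of genes, with UGT74B1 and UGT78D1, was high on the 04h, 08h and 12h arrays, and another, with UGT73B1 and UGT85A4, was high on the 16h, 20h and 00h arrays.

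UGT74B1 (AT1G24100) adds glucose to sulfur in the core of the glucosinolates, the sulfur-containing defence compounds of the cabbage family. Its intensity was 132.8 and 94.2 at 00h, 674.3 at 04h, 693.6 at 08h, 550.3 and 606.9 at 12h, 226.5 at 16h and 144.4 at 20h. All arrays of 04h, 08h and 12h lay above all arrays of 16h, 20h and 00h, and the highest value was 7.36 times the lowest. UGT74B1 averaged 578.6 ± 40.02 at 12h and 113.5 ± 27.3 at 00h (SD, n = 2 each), a difference of 2.21 ± 0.224 log2 units (SE, limma adjusted p = 4.46e-05), with 1.93 between the A arrays and 2.50 between the B arrays. Its fitted curve peaked at 8.80 ± 0.50 h with an amplitude of 1.42 ± 0.192 (SE, limma adjusted p = 8.66e-04). This was the largest amplitude among the 24 genes.

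The flavonoid UGTs add sugars to flavonoids such as flavonols and anthocyanins. Of 10 genes listed as flavonoid UGTs, 5 had a probe set under their own symbol. Of these, 2 were bright enough to test, UGT78D1 and UGT78D2. Both were higher at 12h, with a median change of 1.75 in log2, against 0.06 over all probe sets. UGT78D3, UGT71C1 and UGT84A1 were below the filter.

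UGT78D1 (AT1G30530), the flavonol 3-O-rhamnosyltransferase, read 41.5 and 63.4 at 00h, 206.5 at 04h, 194.2 at 08h, 254.8 and 364.3 at 12h, 71.3 at 16h and 38.4 at 20h. The 12h arrays were the highest of the day, and none of the 4 arrays from 04h to 12h overlapped the other 4. UGT78D1 averaged 309.6 ± 77.4 at 12h and 52.5 ± 15.5 at 00h (SD, n = 2 each), a difference of 2.25 ± 0.258 log2 units (SE, limma adjusted p = 9.82e-05), which was 2.24 between the A arrays and 2.26 between the B arrays. The cosine peaked at 9.01 ± 0.54 h with an amplitude of 1.35 ± 0.191 (SE, limma adjusted p = 0.00106).

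UGT78D2 (AT5G17050), the flavonoid 3-O-glucosyltransferase, read 157.9 and 164.5 at 00h, 183.1 at 04h, 210.9 at 08h, 316.1 and 513.7 at 12h, 121.4 at 16h and 130.8 at 20h. Only its 12h arrays stood clear of the rest, and they differed from each other more than the 00h arrays did. It averaged 414.9 ± 139.7 at 12h and 161.2 ± 4.67 at 00h (SD, n = 2 each), a difference of 1.24 ± 0.25 log2 units (SE, limma adjusted p = 0.00285), or 0.93 between the A arrays and 1.55 between the B arrays. UGT78D2 did not pass the rhythm test (amplitude 0.61 ± 0.2, SE, limma adjusted p = 0.0714). The change between 00h and 04h was 0.17 ± 0.306 for UGT78D2 (limma adjusted p = 0.731) and 1.72 ± 0.316 for UGT78D1 (limma adjusted p = 0.00316), and the difference between the 2 genes was not tested.

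Of 11 listed flavonoid genes without a UGT symbol, 5 had a probe set and were tested. They were DFR and CHIL, which act in synthesis, and the glycosyltransferase genes UF3GT, AT4G14090 and AT1G06000. All 5 were higher at 12h, against 21.9% of all probe sets, with a median change of 3.72 in log2. The list of flavonoid UGTs above went by UGT symbol and so did not count UF3GT, AT4G14090 and AT1G06000. The lists are thus not independent sets of genes. Of 29 listed genes for making UDP-sugars, 1 had a probe set under its own symbol. That gene, USP, encodes a UDP-sugar pyrophosphorylase and read 81.1 and 82.0 at 00h, 198.8 at 04h, 198.0 at 08h, 156.2 and 175.2 at 12h, 117.0 at 16h and 80.8 at 20h. USP was higher at 12h by 0.90 ± 0.211 in log2 (SE, limma adjusted p = 0.00686), and its curve peaked at 8.49 h.

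**Figure D2:**
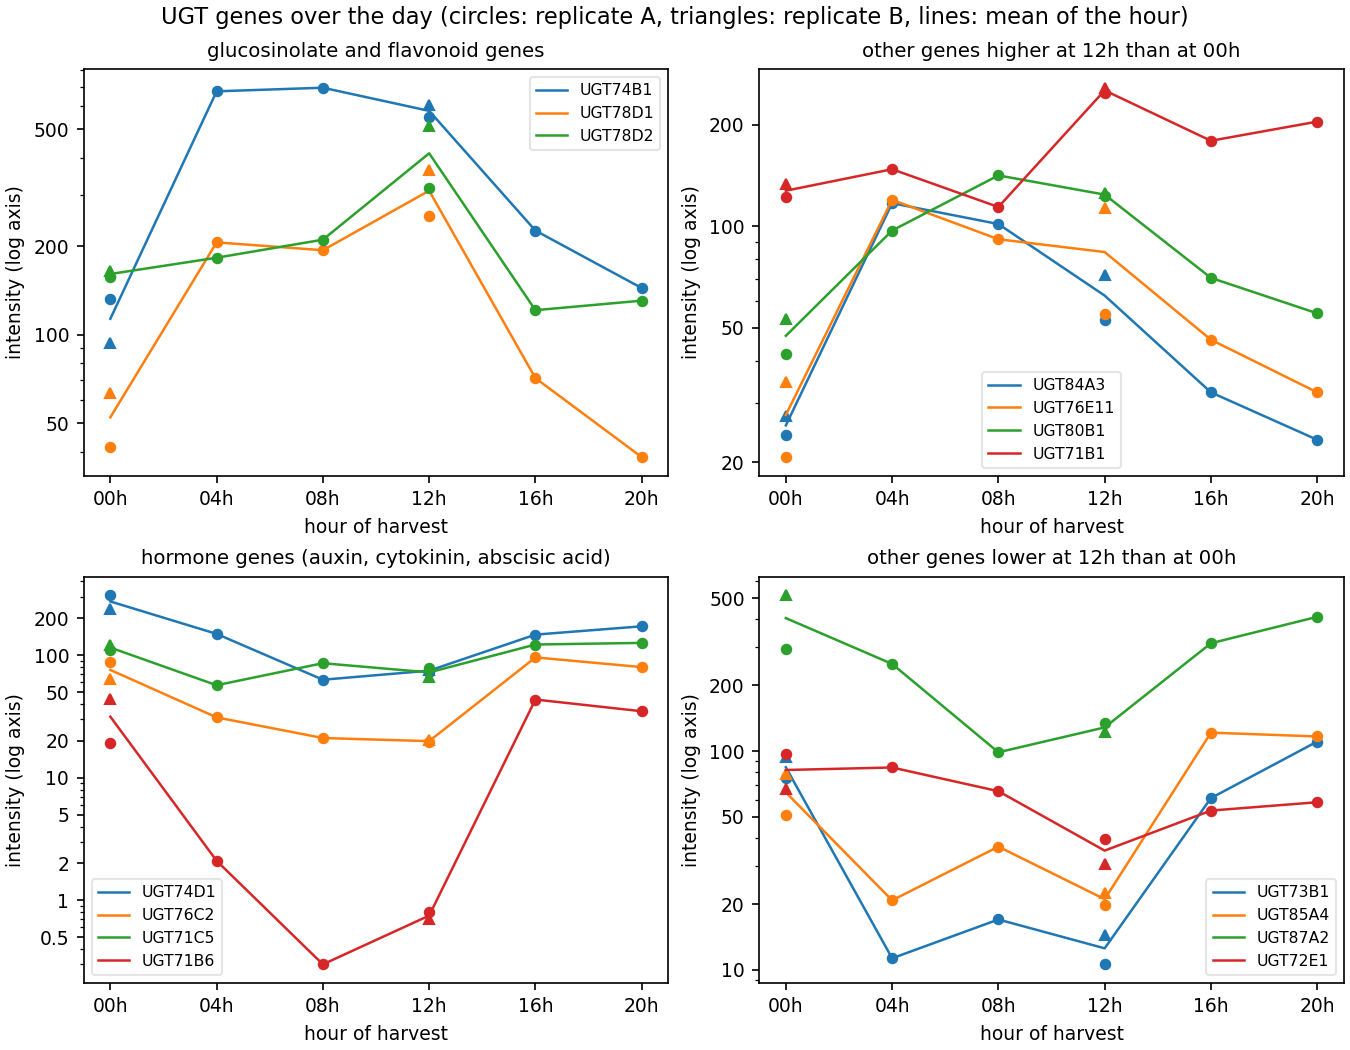
Array intensity on log axes against the hour of harvest for 15 UGT genes in 4 panels, with circles for replicate A, triangles for replicate B and lines through the mean of each hour. UGT74B1 and UGT78D1 were high from 04h to 12h, whereas UGT76C2, UGT73B1 and the dim gene UGT71B6 were low over the same hours.

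The sinapate and monolignol UGTs glucosylate hydroxycinnamic acids, which feed the sinapate esters, and the building blocks of lignin. Of 10 listed, 7 had a probe set under their own symbol and 5 were tested. GT72B1, which carries another symbol, was not counted here. It was higher at 12h and rhythmic, and is given with the other observations. Of the 5 tested, 1 was higher and 1 lower at 12h, where 21.9% of all probe sets were higher and 18.6% lower. Of the same 5, 2 were rhythmic, against 40.7% of all. The median change was 0.33 in log2, against 0.06 over all probe sets.

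UGT84A3 (AT4G15490), which makes glucose esters of hydroxycinnamates, read 24 and 27.4 at 00h, 117.0 at 04h, 101.5 at 08h, 52.9 and 71.7 at 12h, 32.2 at 16h and 23.3 at 20h. Its highest arrays were those of 04h and 08h, and the 12h arrays lay between them and the 00h arrays. It averaged 62.3 ± 13.3 at 12h and 25.7 ± 2.40 at 00h (SD, n = 2 each), a difference of 0.90 ± 0.24 log2 units (SE, limma adjusted p = 0.0128), with 0.78 between the A arrays and 1.01 between the B arrays. Without the 12h B array the change was 0.73 and no longer called (limma adjusted p = 0.0711). The rhythm of UGT84A3 peaked at 7.53 ± 0.54 h with an amplitude of 0.95 ± 0.161 (SE, limma adjusted p = 0.00288).

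UGT72E1 (AT3G50740), which glucosylates coniferaldehyde and sinapaldehyde, read 97.0 and 67.0 at 00h, 84.2 at 04h, 65.6 at 08h, 39.7 and 30.5 at 12h, 53.5 at 16h and 58.4 at 20h. The 12h arrays were the lowest of the day. UGT72E1 averaged 35.1 ± 6.51 at 12h and 82.0 ± 21.2 at 00h (SD, n = 2 each), a difference of -0.93 ± 0.253 log2 units (SE, limma adjusted p = 0.0143), or -1.02 between the A arrays and -0.84 between the B arrays. Its fitted peak was at 1.66 ± 1.1 h, with an amplitude of 0.45 ± 0.115 (SE, limma adjusted p = 0.0244). The call at 12h was lost without 00h A (limma adjusted p = 0.101) or without 12h B (limma adjusted p = 0.0546), and the rhythm call was lost without 00h A, 12h A or 12h B (limma adjusted p = 0.0831, 0.061 and 0.09).

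UGT72E2 (AT5G66690), which acts on the monolignol alcohols, read 43.7 and 34.4 at 12h against 24.8 and 28.2 at 00h, a difference of 0.37 ± 0.226 log2 units (SE, limma adjusted p = 0.221). UGT72B3 (AT1G01420) read 21.8 and 28.3 at 12h against 17.0 and 20.5 at 00h, a difference of 0.24 ± 0.221 log2 units (SE, limma adjusted p = 0.425). In both genes the 12h arrays lay above the 00h arrays without passing the test.

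UGT80B1 (AT1G43620) attaches glucose to membrane sterols and was the only sterol UGT of 3 listed with a probe set under its UGT symbol. SGT, a sterol glucosyltransferase gene with another symbol, was tested and not called at 12h, and is given with the other observations. UGT80B1 read 41.7 and 53.0 at 00h, 97.1 at 04h, 141.4 at 08h, 122.7 and 125.4 at 12h, 70.3 at 16h and 55.2 at 20h. The 4 arrays from 04h to 12h lay above the other 4. It averaged 124.1 ± 1.91 at 12h and 47.4 ± 7.99 at 00h (SD, n = 2 each), a difference of 1.15 ± 0.228 log2 units (SE, limma adjusted p = 0.00262), with 1.27 between the A arrays and 1.04 between the B arrays. The fitted peak of UGT80B1 was at 9.36 ± 0.60 h, with an amplitude of 0.70 ± 0.105 (SE, limma adjusted p = 0.00146).

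The hormone UGTs inactivate or store auxin, cytokinin, abscisic acid and brassinosteroids as sugar conjugates. Of 18 listed, 10 had a probe set under their own symbol and 4 were tested. Of these 4, none was higher at 12h and 2 were lower, UGT74D1 and UGT76C2, against 18.6% lower over all probe sets. Both were also rhythmic, as were 40.7% of all probe sets. The median change of the 4 was -0.96 in log2, against 0.06 over all probe sets.

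UGT74D1 (AT2G31750), which conjugates auxin and its oxidised form, read 310.3 and 239.1 at 00h, 149.3 at 04h, 63.1 at 08h, 73.5 and 76.1 at 12h, 147.3 at 16h and 172.2 at 20h. The 00h arrays were the highest of the day and the 08h array the lowest. UGT74D1 averaged 74.8 ± 1.84 at 12h and 274.7 ± 50.3 at 00h (SD, n = 2 each), a difference of -1.67 ± 0.221 log2 units (SE, limma adjusted p = 2.42e-04), which was -1.87 between the A arrays and -1.47 between the B arrays. Its rhythm peaked at 22.4 ± 0.64 h with an amplitude of 0.87 ± 0.123 (SE, limma adjusted p = 0.00112).

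UGT76C2 (AT5G05860), an N-glucosyltransferase of cytokinins, read 87.3 and 64.4 at 00h, 31.1 at 04h, 21.1 at 08h, 19.4 and 20.4 at 12h, 96.0 at 16h and 80.0 at 20h. The 12h arrays were nearly equal, and every array of 16h, 20h and 00h lay above every array of 04h, 08h and 12h. UGT76C2 averaged 19.9 ± 0.707 at 12h and 75.9 ± 16.2 at 00h (SD, n = 2 each), a difference of -1.34 ± 0.239 log2 units (SE, limma adjusted p = 0.00139), or -1.54 between the A arrays and -1.14 between the B arrays. The amplitude of its rhythm was 0.94 ± 0.154, with the peak at 20.4 ± 0.58 h (SE, limma adjusted p = 0.00239).

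UGT71C5 (AT1G07240), which makes the glucose ester of abscisic acid, read 109.5 and 121.4 at 00h, 56.9 at 04h, 86.1 at 08h, 78.6 and 66.2 at 12h, 122.3 at 16h and 126.1 at 20h. Its arrays of 04h, 08h and 12h lay below those of 16h, 20h and 00h, yet the change of -0.57 ± 0.224 at 12h missed the threshold (SE, limma adjusted p = 0.0637). The value of 12h against 00h passed when the arrays were scaled to 1 median (limma adjusted p = 0.0245), and also with the letter A or B as a block (limma adjusted p = 0.0343). UGT71B6, another abscisic acid UGT, was below the filter and is described with the dim genes.

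UGT76B1 (AT3G11340) acts on isoleucic acid, salicylate and N-hydroxypipecolate, which regulate defence and senescence. Of 10 salicylate and defence UGTs listed, 6 had a probe set under their own symbol, and UGT76B1 alone of these was tested. It read 11.2 and 149.6 at 00h, 99.2 at 04h, 6.5 at 08h, 4.2 and 2.8 at 12h, 14.3 at 16h and 22.4 at 20h. The A and B arrays of 00h differed by 2.61 in log2, and of the 13647 probe sets tested only that of the plastid gene psaA had a larger gap between these arrays. UGT76B1 averaged 3.50 ± 0.99 at 12h and 80.4 ± 97.9 at 00h (SD, n = 2 each), a difference of -1.78 ± 0.615 log2 units (SE, limma adjusted p = 0.0404), which was -0.43 between the A arrays and -3.14 between the B arrays. Without 00h B the change was -0.48 and not called (limma adjusted p = 0.204), so 1 array decided this call. The rhythm test was not passed with all arrays (amplitude 1.04 ± 0.321, SE, limma adjusted p = 0.0599) and was passed without 00h A (amplitude 1.47 ± 0.215, SE, limma adjusted p = 0.00346).

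**Figure D3:**
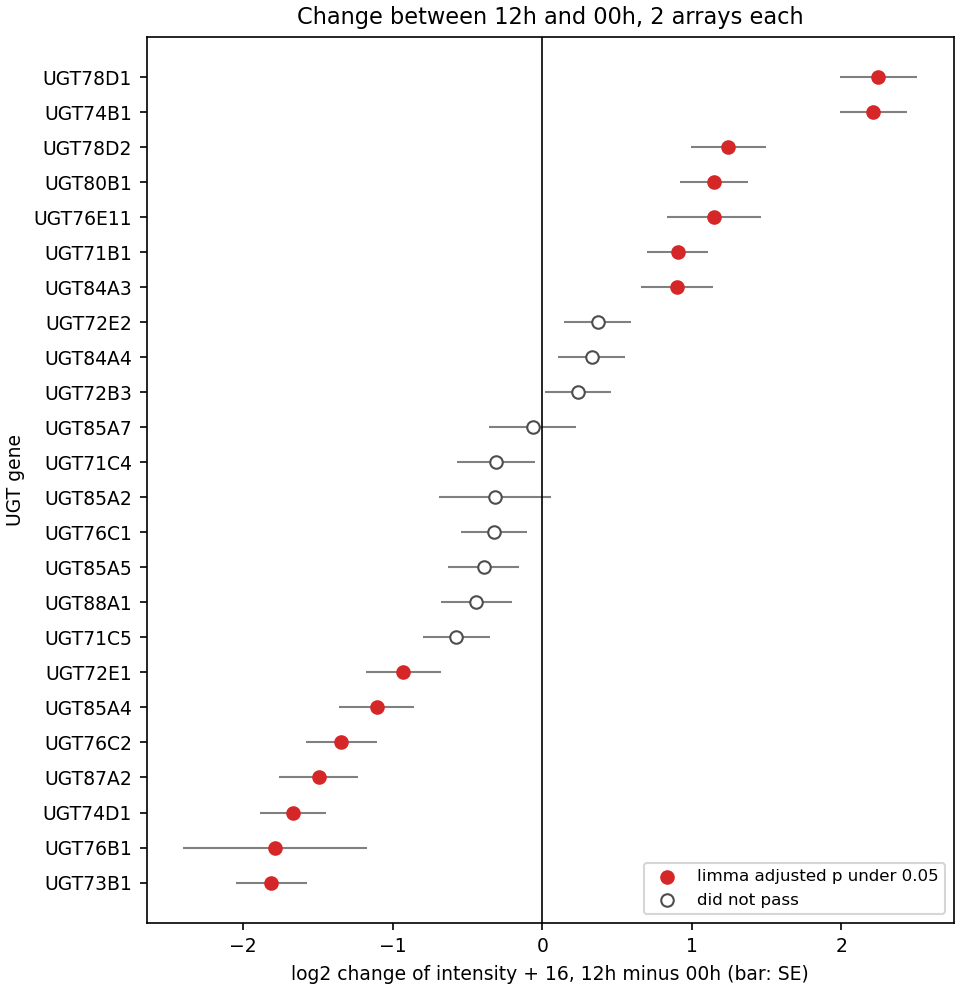
The log2 change of each tested UGT gene, 12h minus 00h on log2(intensity + 16), with bars of 1 SE, filled points for genes past the threshold and open points for the others. UGT78D1 and UGT74B1 lay highest, at 2.25 and 2.21, UGT73B1 lay lowest at -1.81, and UGT76B1 had the widest bar, 0.615.

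The stress and xenobiotic induced UGTs are known from seedlings treated with pathogens, oxidants or foreign chemicals, and for most of them the acceptor in the plant is less settled. Of 15 listed, 9 had a probe set under their own symbol and 4 were tested. GT72B1 and the probe set shared by UGT73B2 and UGT73B3 were not counted here and are given with the other observations. Of the 4 tested, 2 were higher at 12h, UGT76E11 and UGT71B1, and 2 lower, UGT73B1 and UGT87A2. Over all probe sets 21.9% were higher and 18.6% lower. The median change was -0.29 in log2, against 0.06 over all, and 3 of the 4 were rhythmic, against 40.7% of all.

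UGT73B1 (AT4G34138) read 75.0 and 93.7 at 00h, 11.3 at 04h, 17.0 at 08h, 10.6 and 14.5 at 12h, 61.0 at 16h and 110.6 at 20h. The highest array was 10.4 times the lowest, and the 4 arrays from 04h to 12h all lay below the other 4. It averaged 12.6 ± 2.76 at 12h and 84.4 ± 13.2 at 00h (SD, n = 2 each), a difference of -1.81 ± 0.234 log2 units (SE, limma adjusted p = 2.04e-04), or -1.77 between the A arrays and -1.85 between the B arrays. Since its low values are near the constant of 16, the size depended on that constant, at -2.66 with 1 and -0.95 with 64. The amplitude of UGT73B1 was 1.25 ± 0.165 and its peak at 20.5 ± 0.47 h (SE, limma adjusted p = 7.55e-04).

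UGT87A2 (AT2G30140), which affects flowering time, read 293.7 and 517.5 at 00h, 250.4 at 04h, 98.8 at 08h, 134.4 and 122.3 at 12h, 311.3 at 16h and 411.1 at 20h. The 04h array lay between the 00h and the 12h arrays, and the lowest array was that of 08h. UGT87A2 averaged 128.3 ± 8.56 at 12h and 405.6 ± 158.3 at 00h (SD, n = 2 each), a difference of -1.49 ± 0.266 log2 units (SE, limma adjusted p = 0.0014), with -1.04 between the A arrays and -1.95 between the B arrays. Its rhythm peaked at 21.3 ± 0.58 h, with an amplitude of 0.99 ± 0.144 (SE, limma adjusted p = 0.00128).

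UGT76E11 (AT3G46670), which accepts flavonoids, read 20.7 and 34.5 at 00h, 119.7 at 04h, 91.5 at 08h, 54.8 and 112.9 at 12h, 46.1 at 16h and 32.2 at 20h. The arrays from 04h to 12h lay above the other 4, and 12h B was about as high as 04h while 12h A was closer to 16h. UGT76E11 averaged 83.9 ± 41.1 at 12h and 27.6 ± 9.76 at 00h (SD, n = 2 each), a difference of 1.15 ± 0.313 log2 units (SE, limma adjusted p = 0.0143), or 0.95 between the A arrays and 1.35 between the B arrays. Without 12h B the change was 0.72 and not called (limma adjusted p = 0.0876), and the rhythm, with an amplitude of 0.81 ± 0.2 (SE, limma adjusted p = 0.0205) and a peak at 8.34 h, was not called either (limma adjusted p = 0.0511).

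UGT71B1 (AT3G21750) read 121.7 and 133.1 at 00h, 147.5 at 04h, 114.0 at 08h, 247.9 and 257.2 at 12h, 179.1 at 16h and 204.1 at 20h. Its 12h arrays were close together and the highest of the day, and the 16h and 20h arrays also lay above those of 00h. UGT71B1 averaged 252.6 ± 6.58 at 12h and 127.4 ± 8.06 at 00h (SD, n = 2 each), a difference of 0.91 ± 0.204 log2 units (SE, limma adjusted p = 0.00539), with 0.94 between the A arrays and 0.87 between the B arrays. It did not pass the rhythm test (amplitude 0.43 ± 0.144, SE, limma adjusted p = 0.0772).

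UGT85A4 (AT1G78270) read 51.3 and 78.3 at 00h, 20.8 at 04h, 36.6 at 08h, 19.7 and 22.4 at 12h, 121.5 at 16h and 116.7 at 20h. Its highest arrays were those of 16h and 20h, and the 00h arrays lay between them and the rest. UGT85A4 averaged 21.1 ± 1.91 at 12h and 64.8 ± 19.1 at 00h (SD, n = 2 each), a difference of -1.11 ± 0.251 log2 units (SE, limma adjusted p = 0.0056), or -0.91 between the A arrays and -1.30 between the B arrays. The amplitude of its rhythm was 1.01 ± 0.219 and the peak was at 19.5 ± 0.69 h (SE, limma adjusted p = 0.011).

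Across the day, 11 of the 24 tested UGT genes (45.8%) passed the rhythm test, against 40.7% of all probe sets, so the share was near the background. The median amplitude was 0.61 for the 24 UGT genes and 0.36 over all probe sets tested. The peaks of UGT84A3, UGT76E11, UGT74B1, UGT78D1 and UGT80B1 were between 7.53 and 9.36 h. The peaks of UGT85A4, UGT76C2, UGT73B1, UGT87A2 and UGT74D1 were between 19.5 and 22.4 h. UGT72E1 peaked at 1.66 h, and none of the 11 had a fitted peak from 12 h to 18 h. Of all 5549 rhythmic probe sets, 3.93% had their peak in the first 6 h, 49.4% between 6 h and 12 h, 3.71% in the next 6 h and 42.9% after 18 h, so the members' peaks were spread much as those of the whole array. All 11 were also called between 12h and 00h, and UGT71B1, UGT76B1 and UGT78D2 were called there without passing the rhythm test. Both tests used the same 8 arrays, so their calls overlap over the whole array too. Of all probe sets, 40.7% were rhythmic and 40.5% were called between 12h and 00h. Only 48.8% passed either of these tests or a step. The share of all rhythmic probe sets also called at 12h was not computed.

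The division can also be described without a fitted curve, on the same 8 arrays, so it is no separate support for the rhythm. In 8 of the 24 genes every array of 04h, 08h and 12h lay above every array of 16h, 20h and 00h, against 20.5% of all probe sets. These 8 were UGT74B1, UGT78D1, UGT78D2, UGT80B1, UGT76E11, UGT84A3, UGT84A4 and UGT72E2. In 6 genes, UGT73B1, UGT76C2, UGT85A4, UGT85A5, UGT87A2 and UGT71C5, every array of the first set lay below every array of the second, against 18.7% of all probe sets, so that 14 genes showed no overlap in either direction, against 39.2%. The 12h arrays did not overlap the 00h arrays in 21 of the 24 genes, against 71.0% of all probe sets, with 10 genes above (38.1% of all) and 11 below (32.9% of all), and the exceptions were UGT71C4, UGT85A2 and UGT85A7.

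Of the 6 steps between neighbouring hours, calls were made in 2. From 00h to 04h 10 UGT genes were called, where 27.0% of all probe sets were called, and 5 of them were higher, against 15.6% of all probe sets, and 5 lower, against 11.5%. The higher genes were UGT74B1 (log2 change 2.43 ± 0.275, SE, limma adjusted p = 2.2e-04), UGT78D1, UGT84A3 (1.67 ± 0.293, adjusted p = 0.00238), UGT76E11 (1.66 ± 0.383, adjusted p = 0.0101) and UGT80B1 (0.84 ± 0.279, adjusted p = 0.0479). The lower genes were UGT73B1 (-1.87 ± 0.287, SE, limma adjusted p = 0.00117), UGT85A5, UGT85A4 (-1.11 ± 0.307, adjusted p = 0.0229), UGT76C2 (-0.95 ± 0.292, adjusted p = 0.036) and UGT71C5 (-0.85 ± 0.274, adjusted p = 0.0436). The 04h value behind all 10 calls rests on 1 array. The calls of UGT80B1 and UGT71C5 were lost without 00h A and also without 00h B. Those of UGT76C2 and UGT85A4 were lost without 00h A and without 00h B, respectively. Without 00h A the change was 0.71 for UGT80B1, -0.91 for UGT71C5 and -0.77 for UGT76C2. Without 00h B it was 0.97 for UGT80B1, -0.78 for UGT71C5 and -0.87 for UGT85A4. The SE also widened, for UGT80B1 from 0.279 to 0.393, so a lost call does not show that 1 array made it.

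UGT85A5 (AT1G22370) was called in the step from 00h to 04h alone. It read 58.6 and 73.9 at 00h, 11.6 at 04h, 35.7 at 08h, 49.6 and 43.3 at 12h, 63.7 at 16h and 61.9 at 20h. The 04h array was the lowest, the 08h and 12h arrays lay below both 00h arrays, and the 16h and 20h arrays lay between those of 00h. The change at 04h was -1.57 ± 0.288 in log2 (SE, limma adjusted p = 0.0031), whereas that of 12h against 00h was -0.39 ± 0.235 (SE, limma adjusted p = 0.211). The 04h value rests on 1 array.

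From 12h to 16h 7 UGT genes were called, where 11.2% of all probe sets were called, and 4 of them were higher, against 6.75% of all probe sets, and 3 lower, against 4.43%. The higher genes were UGT85A4 (log2 change 1.89 ± 0.307, SE, limma adjusted p = 0.00365), UGT76C2 (1.64 ± 0.292, adjusted p = 0.00619), UGT73B1 (1.43 ± 0.287, adjusted p = 0.0114) and UGT87A2 (1.18 ± 0.326, adjusted p = 0.0435). The lower genes were UGT78D1 (-1.88 ± 0.316, SE, limma adjusted p = 0.0045), UGT78D2 (-1.61 ± 0.306, adjusted p = 0.00869) and UGT74B1 (-1.29 ± 0.275, adjusted p = 0.0151). All 7 of these calls were lost when no probe set was filtered out (limma adjusted p from 0.0652 to 0.175), and that of UGT87A2 also without 12h B (limma adjusted p = 0.0549). The same setting left 5 of the 10 calls between 00h and 04h, and it ended the calls of 12h against 00h for UGT72E1, UGT76B1, UGT76E11 and UGT84A3 (limma adjusted p = 0.0616, 0.213, 0.0885 and 0.0569).

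In the other 4 steps limma called none of the 24 genes. The shares of all probe sets given here are of adjusted calls. The share of all probe sets with an unadjusted p under 0.05 was not computed, so the unadjusted counts have no background beside them. In the step from 04h to 08h, 1.03% of all probe sets were called and 4 UGT genes had an unadjusted p under 0.05, UGT74D1, UGT76B1, UGT85A5 and UGT87A2. In the step from 08h to 12h, 0.0879% of all probe sets were called and the unadjusted count was also 4, UGT71B1, UGT78D2, UGT85A7 and UGT88A1. From 16h to 20h, 0.00733% of all probe sets were called and no UGT gene had an unadjusted p under 0.05. From 20h to 00h, 0.139% were called and the unadjusted count was 3, UGT71B1, UGT74D1 and UGT85A4.

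In the gene order of the RefSeq annotation, 31 of the 47 UGT genes had another of them within 2 protein-coding genes, in 18 pairs, and in 5 pairs both genes were tested. The 5 pairs were UGT84A3 with UGT84A4, UGT76C2 with UGT76C1, UGT71C5 with UGT71C4, UGT85A7 with UGT85A2, and UGT85A2 with UGT85A5, all directly adjacent. Between 12h and 00h, UGT84A3 and UGT76C2 were called and their neighbours UGT84A4 and UGT76C1 were not. In the UGT71C and UGT85A pairs neither gene was called. Differences between the genes of a pair were not tested, and other adjacent genes of the array were not counted. Probe sets of close copies may bind RNA of more than 1 gene, which the values used here cannot show.

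UGT84A4 (AT4G15500), next to UGT84A3, read 23.9 and 18.1 at 00h, 37.3 at 04h, 38.5 at 08h, 30.9 and 29.8 at 12h, 23.9 at 16h and 19.9 at 20h. Its arrays from 04h to 12h were the highest, as in UGT84A3, but the rhythm missed the threshold (amplitude 0.33 ± 0.103, SE, limma adjusted p = 0.06). UGT76C1 (AT5G05870), next to UGT76C2 and also a cytokinin N-glucosyltransferase, read 31.4 and 32.5 at 00h, 35.6 at 04h, 40.2 at 08h, 20.3 and 24.4 at 12h, 34.4 at 16h and 37.9 at 20h. The 08h array of UGT76C1 was its highest, the hour at which UGT76C2 was near its lowest. The change at 12h was -0.32 ± 0.222 for UGT76C1 (SE, limma adjusted p = 0.274).

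**Figure D4:**
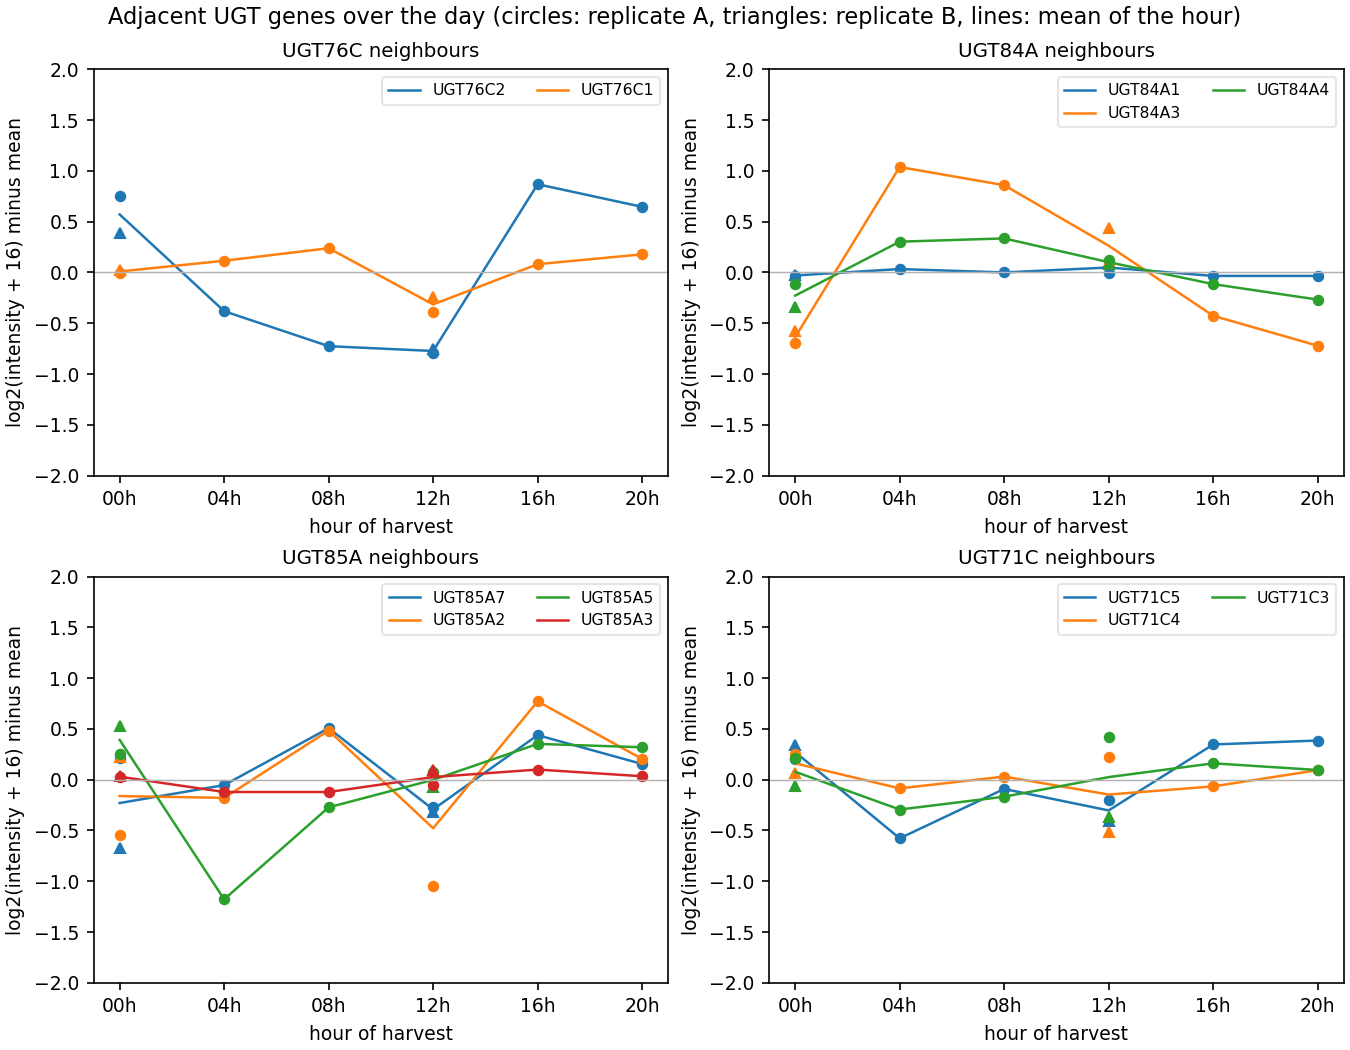
Log2(intensity + 16) minus the gene's own mean over the 8 arrays, against the hour of harvest, for 4 groups of neighbouring UGT genes, with circles for replicate A, triangles for replicate B and lines through the mean of each hour. UGT84A1, UGT85A3 and UGT71C3 were below the filter, and UGT76C2 lay farther from its mean than UGT76C1 on every array.

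UGT71C4 (AT1G07250), next to UGT71C5, read 346.4 and 303.6 at 00h, 270.9 at 04h, 295.0 at 08h, 338.4 and 197.6 at 12h, 274.8 at 16h and 308.9 at 20h. The 12h arrays lay on either side of most others. Its amplitude of 0.13 ± 0.114 was among the 3 smallest of the 24 genes (SE, limma adjusted p = 0.643). UGT85A7 (AT1G22340) had the smallest amplitude, 0.07 ± 0.182 (SE, limma adjusted p = 0.946), and read 35.1 and 11.8 at 00h, 26.6 at 04h, 46.8 at 08h, 20.7 and 19.5 at 12h, 43.9 at 16h and 33.2 at 20h. Its 00h arrays lay on either side of the 12h arrays. UGT85A2 (AT1G22360) read 40.3 and 79.4 at 00h, 56.4 at 04h, 98.6 at 08h, 23.8 and 71.0 at 12h, 123.9 at 16h and 78.4 at 20h. It was the only tested UGT gene whose 12h arrays differed by over 1 in log2. Its change of -0.32 ± 0.376 was smaller than its error (SE, limma adjusted p = 0.539).

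UGT88A1 (AT3G16520), which accepts flavonoids in vitro, read 601.6 and 657.0 at 00h, 888.5 at 04h, 787.1 at 08h, 538.9 and 391.0 at 12h, 523.9 at 16h and 620.6 at 20h. The 04h and 08h arrays were the highest and the 12h B array the lowest, but neither the change at 12h of -0.44 ± 0.239 (SE, limma adjusted p = 0.17) nor the rhythm (amplitude 0.38 ± 0.141, SE, limma adjusted p = 0.111) passed. In all, 16 of the 24 tested UGT genes passed the rhythm test, the test of 12h against 00h or a step, against 48.8% of all probe sets. The 8 that passed none were UGT71C4, UGT72B3, UGT72E2, UGT76C1, UGT84A4, UGT85A2, UGT85A7 and UGT88A1.

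**Figure D5:**
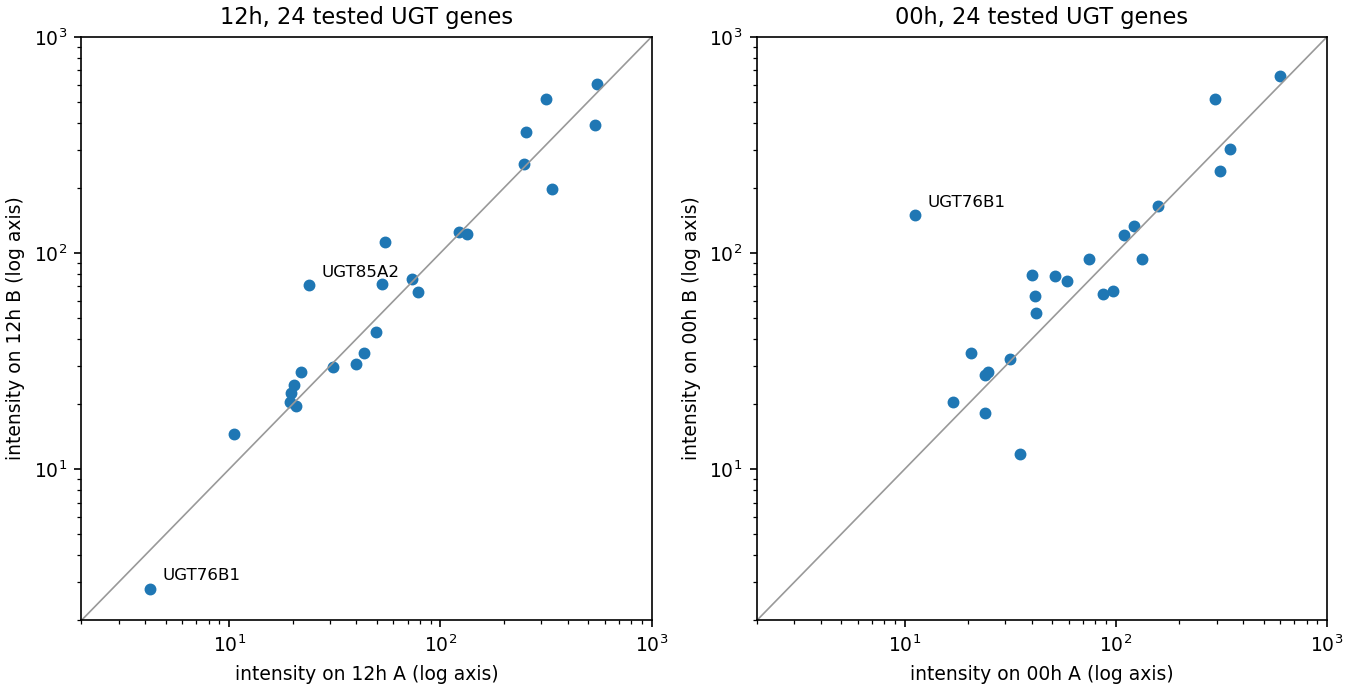
Array intensity on B against array intensity on A, both on log axes, at 12h on the left and at 00h on the right, with 1 point for each of the 24 tested UGT genes and a line where both arrays are equal. UGT76B1 stood far from the line at 00h, with 149.6 on B and 11.2 on A, and UGT85A2 lay farthest from it at 12h, with 71.0 on B and 23.8 on A.

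The median gap between A and B was 0.18 in log2 at 12h and 0.27 at 00h for the 24 genes, and 0.25 at 12h and 0.24 at 00h over all probe sets.

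Of the 23 UGT genes below the filter, none had a mean intensity above 18.2, 14 never reached 16 on any array and 8 never reached 5. By family, 6 of 9 members of family 71 and 6 of 7 of family 73 were below it, with UGT73B1 the only tested gene of family 73. The other dim genes were 1 of 4 in family 72, 1 of 3 in family 74, 4 of 8 in family 76, 1 of 3 in family 78, 3 of 5 in family 84 and 1 of 5 in family 85. Families 80, 87 and 88 had 1 member each under the symbol rule, and these were tested.

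Among the dim genes, UGT71B6, which glucosylates abscisic acid, read 19.1 and 43.9 at 00h, 2.1 at 04h, 0.3 at 08h, 0.8 and 0.7 at 12h, 43.5 at 16h and 34.9 at 20h. The 4 arrays from 04h to 12h all lay below the other 4. In the fit without a filter UGT71B6 was lower at 12h (limma adjusted p = 0.0257) and rhythmic (limma adjusted p = 0.00843). UGT73D1 read 0.8 and 1.1 at 12h against 14.8 and 22.9 at 00h, and was also lower at 12h in that fit (limma adjusted p = 0.0176) and rhythmic (limma adjusted p = 0.0164). UGT71B5 read 2.1 and 4.1 at 12h against 16.0 and 14.1 at 00h, and was lower at 12h in the same fit (limma adjusted p = 0.0234). From 00h to 04h that fit called UGT76E12, which read 10.1 at 04h against 0.5 and 1.4 at 00h, UGT71C1, which read 9.7 at 04h against 1.3 and 1.8 at 00h, and UGT71B5, which read 1.7 at 04h (limma adjusted p = 0.0193, 0.0454 and 0.0438). At these intensities the size of a change is set by the added constant, so the direction alone is given. For the step from 00h to 04h even the direction rests on 1 dim array at 04h. At 08h UGT76E12 read 0.7, UGT71C1 1.7 and UGT71B5 9.0. UGT85A3, by contrast, stayed between 14.8 and 19.9 on every array. Many probe sets outside the UGT genes were also called lower at 12h or rhythmic in the fit without a filter. With the filter, 18.6% of all probe sets were lower at 12h, 40.7% were rhythmic and 27.0% were called from 00h to 04h. These shares are not the background of the fit without a filter. In that fit fewer probe sets were called lower at 12h or rhythmic, out of more tested, so both shares were smaller. For the step from 00h to 04h the share without a filter is not given here. Whether the dim UGT genes differed from the array in their share of calls was not tested.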

How the data were processed

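Per the submitters' processing notes, the authors made the deposited intensity values with MAS5, and no version or scaling target was given. The values were linear, with a trimmed mean of 100 on every array. Biotin-labelled RNA of 8 pooled rosette samples was measured. Of 22810 probe sets, 64 controls were left out, 13513 had 1 gene in the platform table, 503 had several and 8730 had none. The log2 of the deposited intensity plus 16 was taken here, and the lowest 40% by mean log2 value were left out, so that the lowest mean kept corresponded to an intensity of 20.7. Tests used limma 3.58.1 in R 4.3.3 (lmFit, eBayes with an intensity trend), with 5 residual degrees of freedom in the rhythm fit and 2 in the fit by hour, adjusted over 13647 probe sets. The fits were tested on simulated data. All 47 symbols were those of the RefSeq table (assembly TAIR10.1), which was used for names and gene order alone. Every UGT gene is accounted for. Values on all arrays are given for the largest amplitudes and changes past the threshold, the highest mean intensities, the smallest amplitudes, and adjacent tested genes where 1 was called and the other was not. The members and lists were chosen with earlier results of these data known. Alternatives covered the constant, the filter, scaling, the trend, the letter and the hybridisation controls as blocks, and each array left out. The letters A and B were checked as pairs: the deviations of 00h A and 12h A from their hour means correlated at 0.30 over probe sets, and since the labels give only the letter, it was not used as a block in the tests reported. PGM1 had no probe set of its own gene and is not analysed here.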

Additional observations from a re-analysis of the deposited data

How the results depend on the processing

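No called UGT change turned its direction under the alternatives run. The uncalled changes of 12h against 00h did so when an array was left out in UGT71C4 (-0.67 to 0.06), UGT85A2 (-0.88 to 0.25) and UGT85A7 (-0.50 to 0.38). With the replicate block (letter A or B as a term) 12 UGT genes were rhythmic instead of 11 and 15 instead of 14 were called between 12h and 00h, the added genes being UGT78D2 and UGT71C5, and 2 genes (UGT76B1 and UGT87A2) were called from 04h to 08h and 1 (UGT85A2) from 08h to 12h, where none was called before. The replicate block also added UGT74D1 from 00h to 04h and UGT85A2 from 12h to 16h. With the hybridisation controls as a block, 12 genes were rhythmic (UGT76B1 added) and 15 were called between 12h and 00h (UGT71C5 added). That block also called UGT76B1 and UGT87A2 from 04h to 08h and added UGT74D1, UGT76E11 and UGT85A7 from 12h to 16h. In the fit by hour this block and the replicate block part the same arrays, 00h A and 12h A from 00h B and 12h B. Their values for 12h against 00h and for 04h to 08h are therefore the same by construction. Without a filter, where more probe sets were tested, 5 instead of 10 of the 24 genes were called from 00h to 04h, 0 instead of 7 from 12h to 16h, 10 instead of 14 between 12h and 00h, and 9 instead of 11 as rhythmic (UGT72E1 and UGT76E11 lost). With the lowest 60% left out only 12 of the 24 genes were tested, and 6 were rhythmic, 3 were lower at 12h, and 4 each were called in the steps 04h minus 00h and 16h minus 12h. Leaving out each array in turn gave 9 to 14 rhythmic genes, 0 to 2 calls from 04h to 08h and 0 to 1 from 20h to 00h, the gene being UGT76B1 without 00h A. Among single genes, UGT76B1 lost its call at 12h with a constant of 64 (limma adjusted p = 0.0655), UGT80B1 lost its call from 00h to 04h with a constant of 64 and with both rescalings, UGT71C5 with a constant of 64, and UGT87A2 lost that from 12h to 16h with a constant of 1 or 64, scaling to 1 median or no trend. Scaling every array to 1 median moved the median change of all probe sets at 12h against 00h to -0.10, from 0.06 as deposited, and gave 2358 higher and 3197 lower calls instead of 2992 and 2536. The mean over several probe sets was not run, since no UGT gene had over 1, and steps that need an hour with 1 array were not run without it. The causes of these shifts were not tested. With 2 arrays at 12h and at 00h and 1 at each other hour, and no detection calls in the values used, small changes of dim genes cannot be resolved.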

Other observations

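Other probe sets of glycosyltransferases fell outside the symbol rule, because they match several genes or carry another symbol. GT72B1, a glucosyltransferase of phenols and foreign chemicals, read 81.4 and 78.1 at 00h, 409.8 at 04h, 240.4 at 08h, 314.3 and 247.6 at 12h, 76.4 at 16h and 48.2 at 20h. It was higher at 12h by 1.62 ± 0.217 in log2 (SE, limma adjusted p = 2.54e-04), and its rhythm peaked at 7.83 h with an amplitude of 1.37 ± 0.209 (SE, limma adjusted p = 0.00166). UF3GT, a glycosyltransferase of anthocyanins, read 323.7 and 414.3 at 12h against 10.6 and 26.2 at 00h, a change of 3.51 ± 0.275 (SE, limma adjusted p = 9.05e-06). AT5G54010 was below the filter. The probe set shared by UGT73B2 and UGT73B3 read 136.1 and 73.6 at 12h against 184.8 and 235.7 at 00h, a change of -0.95 ± 0.28 (SE, limma adjusted p = 0.0213), with 42.0 at 04h and 44.7 at 08h. The probe set shared by UGT89B1 and AT1G73885 read 47.4 and 61.9 at 12h against 104.2 and 98.3 at 00h, a change of -0.74 ± 0.229 (SE, limma adjusted p = 0.0262). The probe set shared by UGT71D1 and AT2G29710 read 39.1 and 38.6 at 12h against 14.4 and 25.8 at 00h, which was not called (0.62 ± 0.244, SE, limma adjusted p = 0.0656). SGT, a sterol glucosyltransferase gene, read 61.7 and 95.8 at 12h against 95.8 and 88.8 at 00h (limma adjusted p = 0.522).

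The 00h arrays differed most in psaA, with 2375.1 on A and 360.0 on B, and next in UGT76B1, with 11.2 on A and 149.6 on B. PDF1.2, a defensin gene, was the third, with 216.8 on A and 1116.0 on B, the same direction as UGT76B1. For PDF1.2 the other arrays lay between 99.6 and 285.4. The signal of 25S ribosomal RNA was 869.3 on 12h A and 2996 on 00h A, against 65.8 to 496.9 on the other arrays, and its part in these gaps was not tested.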
